A study of Mus musculus with 4 samples.

Results

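The cells described here are microglia, the resident macrophages of the brain, that were captured with high levels of immediate early gene (IEG) mRNA. They were chosen by measured values in single-cell RNA sequencing data from mouse whole brain, in which each mRNA molecule is counted through a unique molecular identifier (UMI). A cell barcode was taken as a microglia when it held 1000 to 22005 UMIs, at most 15.8% of them mitochondrial, and at least 60 UMIs of *C1qa*, *C1qb* and *C1qc* per 10000. At most 2 UMIs of the macrophage genes *Mrc1*, *Pf4* and *Cbr2* were allowed, at most 5 of the endothelial genes *Cldn5*, *Flt1* and *Ly6c1*, and at most 4 of the disease-associated genes *Spp1*, *Cst7*, *Clec7a*, *Lpl*, *Gpnmb* and *Itgax*. Of the 36876 barcodes in the libraries, 5605 met these limits, and 1077 of those had at least 10 UMIs of *Fos*, *Egr1* and *Atf3* together per 10000 and are called IEG-high microglia. The remaining 4528 are called other microglia.

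The libraries were made to compare aged with adult brains and a diet rich in fermentable fiber with one poor in it. They came from 4 male C57BL/6J mice, 1 for each combination of age and diet. Adult mice, raised in-house, were 3 to 4 months old and aged mice, from the National Institute on Aging, were 23 to 24 months old when the experimental diets began. The diets were modified from AIN-93M and held 1% cellulose, with 0% inulin for the low fiber or 5% inulin for the high fiber mice. Brains were taken after weeks on these diets, so every mouse was older then than at the start. Mice were kept on a reversed light cycle. The labels describe the animals of the whole experiment as male and female, and the study's methods name males for sequencing. Every brain was digested for 30 min at 37 °C, with no transcription blocker mentioned, and then cleared of debris, red cells, myelin and dead cells. Transcription begun in the brain and transcription begun during this handling cannot be told apart in these libraries, and with 1 mouse per group the mouse, its library and its handling cannot be told apart either. Age also cannot be told apart from the source of the animals. Where 4 values are listed below, their order is adult low fiber, adult high fiber, aged low fiber and aged high fiber.

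Immediate early genes are transcribed within minutes of a stimulus without the need for new protein. *Fos* and the *Jun* proteins pair to form the AP-1 transcription factor, *Egr1* is a zinc finger transcription factor, and *Atf3* is a stress-induced factor of the ATF/CREB family. Their products switch on a second set of genes, while dual specificity phosphatases such as *Dusp1* and mRNA-destabilizing proteins such as *Zfp36* switch the response off again. In microglia, the same genes are known to be induced by enzymatic tissue dissociation as well as by injury and inflammatory signals.

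Promoter sequences are shown for *Fos* and *Atf3*, which define the cells, and for *Dusp1*, which had the highest ratio between the cell states in the mouse where that ratio was lowest among genes outside the rule. Each runs 5′ to 3′ from 250 bases before to 50 bases after the gene's start in RefSeq on build GRCm38.p6. Capitals mark matches to TGACG on either strand (read as CGTCA on the other), the core of the cAMP response element bound by CREB and ATF factors, including its full form TGACGTCA.
Fos, chr12:85473640-85473939, plus strand: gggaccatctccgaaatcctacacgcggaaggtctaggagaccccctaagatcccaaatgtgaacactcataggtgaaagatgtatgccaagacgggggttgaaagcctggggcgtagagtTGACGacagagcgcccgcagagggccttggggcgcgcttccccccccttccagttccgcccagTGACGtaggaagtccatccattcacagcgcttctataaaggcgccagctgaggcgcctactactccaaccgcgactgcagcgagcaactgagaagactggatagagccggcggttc
Atf3, chr1:191183284-191183583, minus strand: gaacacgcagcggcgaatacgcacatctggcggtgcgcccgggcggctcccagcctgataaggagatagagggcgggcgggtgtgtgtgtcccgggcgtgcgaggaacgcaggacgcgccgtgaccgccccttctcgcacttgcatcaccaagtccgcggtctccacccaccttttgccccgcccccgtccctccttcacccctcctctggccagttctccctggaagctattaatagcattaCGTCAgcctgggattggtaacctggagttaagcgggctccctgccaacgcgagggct
Dusp1, chr17:26508423-26508722, minus strand: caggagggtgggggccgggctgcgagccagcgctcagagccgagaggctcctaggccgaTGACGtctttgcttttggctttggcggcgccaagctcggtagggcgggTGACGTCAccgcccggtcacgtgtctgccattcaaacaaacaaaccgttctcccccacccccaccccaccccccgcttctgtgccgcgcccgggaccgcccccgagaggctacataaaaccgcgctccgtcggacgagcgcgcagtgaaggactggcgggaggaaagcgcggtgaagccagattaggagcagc
The *Fos* window held 2 matches, the *Atf3* window 1, and the *Dusp1* window 3, of which 2 are the overlapping strands of 1 full TGACGTCA. TGACG on either strand was found in 7 of the 12 genes with a promoter in the table among 18 looked up (*Fos*, *Atf3*, *Dusp1*, *Fosb*, *Klf2*, *H2-Aa* and *Junb*) and in 20.8% of all 32851 promoters of this length. The full TGACGTCA, each match of which also contains TGACG, was found for *Dusp1* and *H2-Aa* and in 1.79% of all promoters. The CArG box, to which serum response factor binds, was matched in the window of *Zfp36* and in 1.63% of all promoters. Sites farther from a gene's start than these windows were not searched. A match in such a window is a description of the sequence and not evidence of binding in these cells. In the GENCODE annotation of GRCm38 (release M21), *Fos* lies at chr12:85473890-85477273 on the plus strand and *Atf3* at chr1:191170296-191218039 on the minus strand.

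The label of microglia held for most of these cells and is uncertain for a minority. Of 12 microglia markers outside the C1q genes of the rule, none was at 0, and together they summed to 32628, 32081, 30122 and 28695 CPM (UMIs per 1000000, from the UMIs summed over the IEG-high microglia of each mouse). In other microglia the same sum was 35274, 35958, 34554 and 33177 CPM, so it was lower in IEG-high microglia in every mouse, and 10 of the 12 markers had a ratio (IEG-high over other microglia, 5 CPM added to both levels) below 1 in all 4 mice. Of the 8646 genes outside the rule with a mean of at least 10 CPM, 25.9% had a ratio below 1 and 9.13% a ratio above 1 in every mouse. The median ratio over the 12 was 0.88. *P2ry12*, a purinergic receptor of homeostatic microglia, averaged a ratio of 0.86 ± 0.04 (SD, n = 4 mice), *Cx3cr1*, the fractalkine receptor, 0.97 ± 0.03 and *Tmem119*, a microglial surface protein, 1.01 ± 0.04. The ratio of *Tmem119* thus lay within its spread of 1.

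A minority of 65 IEG-high microglia (6.04%) held at least 10 UMIs of the MHC class II genes *H2-Aa*, *H2-Ab1* and *H2-Eb1*, which present peptides to helper T cells. They numbered 8, 9, 18 and 30 in the 4 mice, or 3.24%, 3.64%, 6.16% and 10.3% of the IEG-high microglia, and their share was higher in both aged mice than in either adult mouse. Among other microglia, 44 cells (0.97%) met the same limit. In the 65 cells *P2ry12* stood at 217, 64.4, 132 and 578 CPM, against 2384, 2168, 2040.2 and 1913 CPM in the rest of the IEG-high microglia. *Sall1*, a transcription factor of microglial identity, stood at 43.3, 0, 14.6 and 48.5 CPM, against 304, 313, 289 and 267 CPM in the rest. *Lyz2*, lysozyme M, stood at 4956, 9559, 10052 and 5574 CPM, against 332, 372, 529 and 791 CPM. *P2ry12* and *Sall1* were thus lower, and *Lyz2* higher, in the 65 cells in all 4 mice. *Ccr2*, a monocyte chemokine receptor, was detected in them at 318, 1009.6, 344 and 256 CPM. A UMI of *Tmem119* was found in 87.5%, 77.8%, 50% and 63.3% of the 65 cells in the 4 mice and of *P2ry12* in 37.5%, 33.3%, 38.9% and 46.7%, against means of 4.11% and 7.30% of the endothelial barcodes described below, all before thinning. The 65 cells thus differed among themselves in these markers, the name microglia is uncertain for them as a group, and no other name is given here. The results below that rest on them are also given without them.

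**Figure D1:**
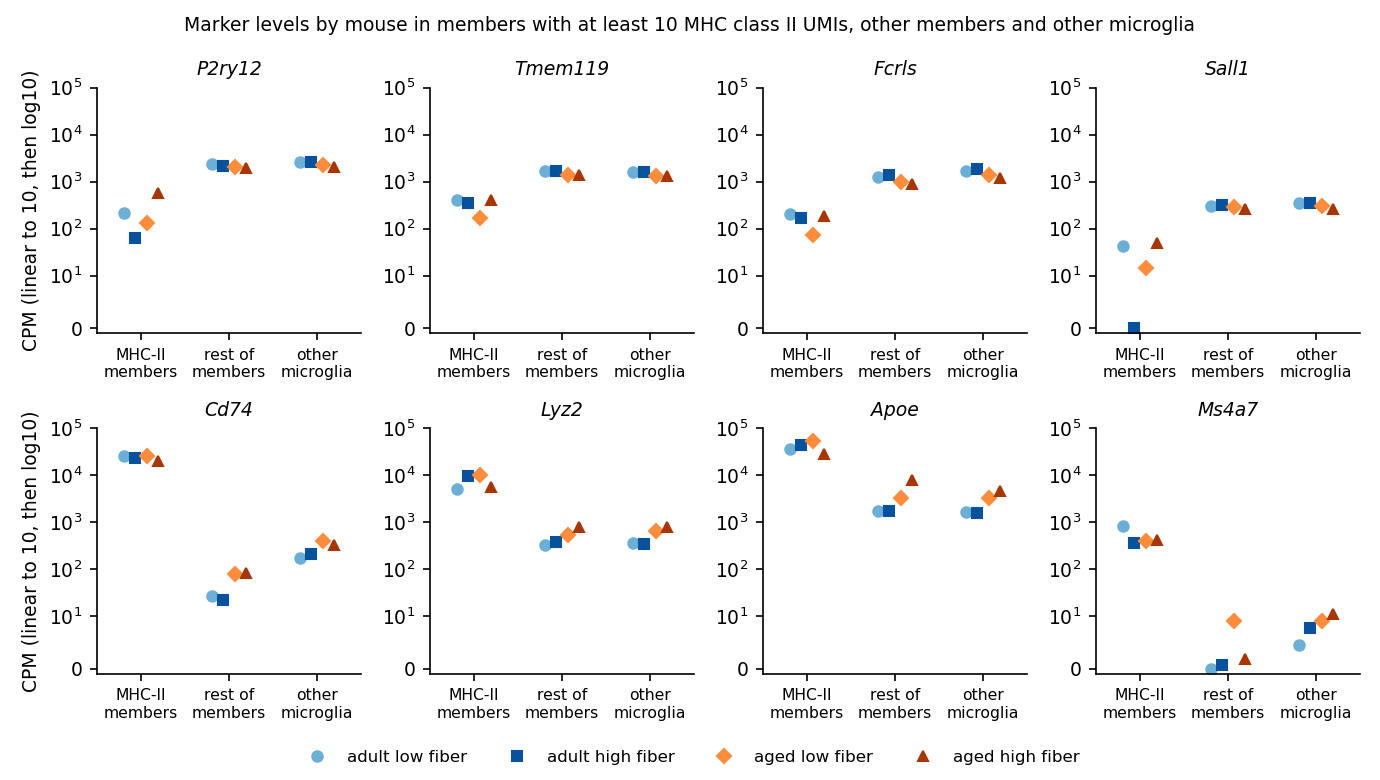
Levels of marker genes in IEG-high microglia with at least 10 MHC class II UMIs (left in each panel), the rest of the IEG-high microglia (middle) and other microglia (right), 1 point per mouse, as CPM of the summed UMIs on an axis that is linear to 10 and log10 above. *P2ry12*, *Tmem119*, *Fcrls* and *Sall1* lie lower and *Cd74*, *Lyz2*, *Apoe* and *Ms4a7* higher in the 65 cells than in the rest in every mouse.

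Markers of other cell types were detected in the IEG-high microglia, those of the choroid plexus with the highest sum. The 8 choroid plexus, ependymal and fibroblast markers summed to 6638, 5648, 3382 and 3798 CPM, almost all of it *Ttr*, transthyretin, the most abundant secreted product of the choroid plexus. In other microglia they summed to 6521, 5821, 3589 and 4778 CPM, and none of the 4 that reached 10 CPM had a ratio above 1 in every mouse. The 8 astrocyte markers summed to 919, 729, 491 and 689.9 CPM against 929.7, 1187, 799 and 848 CPM in other microglia. The 8 macrophage markers not used by the rule summed to 119.6, 128, 185 and 286 CPM against 71.3, 70.6, 86.1 and 79.1 CPM, with *Cd163* at 0. Without the MHC class II cells in either state they summed to 41.4, 44.9, 74.1 and 78.5 CPM against 58.5, 53.5, 62.8 and 66.8 CPM, which was lower in IEG-high microglia of both adult mice and higher in those of both aged mice, so the higher sum in adult mice rests on those cells. The 8 granulocyte markers summed to 283, 1942, 325 and 209 CPM against 927, 704, 312 and 825 CPM, with *S100a9* the most abundant and the adult high fiber mouse far above the other 3. The sums over IEG-high microglia were 699, 759, 695 and 758 CPM for 8 endothelial markers outside the rule, 138, 143, 338 and 186 CPM for 8 mural markers and 62.8, 57.3, 50.997 and 63.9 CPM for 8 oligodendrocyte markers. They were 18.3, 90.97, 24.5 and 51.3 CPM for 8 neuronal markers, 36.6, 33.02, 47.5 and 50.8 CPM for 8 lymphocyte markers and 73.2, 208, 93.5 and 167 CPM for 6 erythroid markers. *Vtn* was the most abundant mural, *Cd79b* the most abundant lymphocyte, *Ms4a6c* the most abundant macrophage and *Slc1a3* the most abundant astrocyte marker, and *Ms4a1* was at 0. The mural, macrophage and lymphocyte sums were higher in both aged mice than in either adult mouse. Scrublet called 29 IEG-high microglia (2.69%) and 182 other microglia (4.02%) doublets, and they were kept.

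The IEG-high microglia were close to other microglia in depth. The IEG-high microglia of the 4 mice held 1639158, 1604878, 2000123 and 1909080 UMIs in all. Their median was 6342, 6482, 6533 and 6166 UMIs per cell, against 6438.5, 6491, 6671.5 and 6377 in other microglia. Mitochondrial UMIs made up a median of 2.12%, 2.23%, 2.58% and 3.00% of a cell, against 2.35%, 2.61%, 3.18% and 3.50%, and ribosomal protein UMIs 7.59%, 7.23%, 8.51% and 9.72% against 7.90%, 8.26%, 9.64% and 11.03%. Both shares were lower in IEG-high than in other microglia of the same mouse, and both were highest in the aged high fiber mouse. Of 8 genes that report RNA quality, 6 had a ratio below 1 in every mouse, and *Neat1*, a nuclear noncoding RNA that is also induced by stress, was at least 2-fold higher in every mouse, at 2.03, 2.95, 2.76 and 2.43. No barcode sequence was an IEG-high microglia in more than 1 library, although 192 barcode sequences occurred in more than 1 library and 9 IEG-high microglia carried one of them.

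The genes that chose the cells varied among them. *Fos* had at least 1 UMI in 85.4% of IEG-high microglia, *Atf3* in 75.2% and *Egr1* in 71.2%, and 502 cells (46.6%) held all 3 mRNAs. A further 416 held 2 of them and 159 held only 1. *Fos* stood at 1587, 2042, 1727 and 1825 CPM, *Egr1* at 847, 1003, 1186 and 912 CPM and *Atf3* at 894, 1100.4, 1389 and 951 CPM. In other microglia *Fos* stood at 82.8, 74.2, 65.5 and 77.8 CPM, *Egr1* at 36.1, 30.5, 38.5 and 55.6 CPM and *Atf3* at 44.96, 35.4, 44.5 and 48.5 CPM. These differences follow from the rule. *Fos* had the most UMIs of the 3 in 492 cells, *Atf3* in 300 and *Egr1* in 249, with ties in 36. The median cell held 24.7, 27.8, 32.7 and 26.8 UMIs of the 3 genes per 10000, and the highest cell 218 per 10000. The threshold did not fall in a gap of the distribution. The lowest cell inside had 10.0 and the highest outside 9.99 per 10000, 146 microglia lay from 8 to under 10 and 104 from 10 to under 12. In 2645 microglia (47.2%) none of the 3 genes had a UMI. Of the IEG-high microglia 8 were placed by only 2 UMIs of the 3 genes, while 808 held at least 10.

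The share of microglia that were IEG-high was higher in both aged mice than in either adult mouse. It was 247 of 1499 (16.5%, exact 95% binomial interval 14.6% to 18.5%) in the adult low fiber mouse and 247 of 1538 (16.1%, 14.3% to 18.0%) in the adult high fiber mouse. It was 292 of 1390 (21.0%, 18.9% to 23.2%) in the aged low fiber mouse and 291 of 1178 (24.7%, 22.3% to 27.3%) in the aged high fiber mouse. Counting error alone is covered by these intervals. Aged mice averaged 22.9% ± 2.61 and adult mice 16.3% ± 0.295 (SD, n = 2), a difference of 6.59 percentage points, and the ages did not overlap. The exact two-sided permutation test over mice gave p = 0.333, the smallest p that 2 mice against 2 allow, so the design cannot reach 0.05. Without the cells of at least 10 MHC class II UMIs the difference was 5.70 percentage points. With each cell thinned at random to 2000 UMIs, the mean was 27.0% in aged and 19.99% in adult mice. Leaving out any 1 mouse gave a difference between 4.74 and 8.43 percentage points.

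The diets overlapped in this share. High fiber mice averaged 20.4% ± 6.11 and low fiber mice 18.7% ± 3.20 (SD, n = 2), a difference of 1.64 percentage points (exact two-sided permutation test, p = 1). The difference turned to -0.626 percentage points without the adult low fiber mouse and to -2.68 without the aged high fiber mouse.

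The same limit on *Fos*, *Egr1* and *Atf3* was set against other cells of the same libraries. Endothelial barcodes passed it in 4.11%, 3.38%, 4.90% and 4.43%, at median depths of 6130, 5850, 6447 and 6231 UMIs, and averaged 4.67% ± 0.334 in aged and 3.75% ± 0.520 in adult mice (SD, n = 2). Their share was thus lower than that of microglia in every mouse. Microglia above the limit on the disease-associated genes passed it in 25.8% of 31, 33.3% of 21, 33.1% of 290 and 26.4% of 401 cells, with means of 29.6% in adult and 29.8% in aged mice. Those cells were deeper, at medians of 10064, 8367, 11208 and 11418 UMIs.

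**Figure D2:**
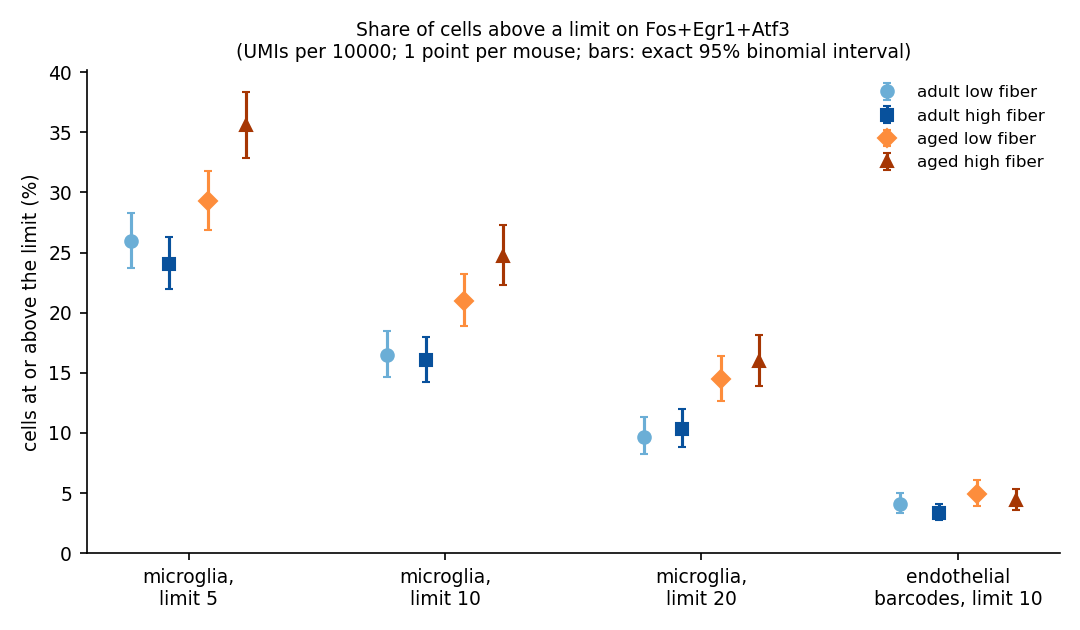
Share in percent of microglia at or above a limit of 5, 10 or 20 UMIs of *Fos*, *Egr1* and *Atf3* per 10000 and of endothelial barcodes at or above 10, 1 point per mouse with its exact 95% binomial interval. At the limit of 10 the aged mice lie at 21.0% and 24.7% of microglia, above the adult mice at 16.5% and 16.1%, and the aged mice lie above the adult mice at the other 2 limits as well.

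Beyond the 3 genes of the rule, IEG-high microglia carried a broad set of other immediate early transcription factors. The comparison with other microglia of the same mouse is given as a description, with no test, since the rule divides the cells on values of this same contrast. Of the 8646 genes outside the rule, 43 (0.497%) were at least 2-fold higher in IEG-high microglia in every mouse and none was at or below 0.5 in every mouse. Of 26 other immediate early transcription factors and regulators, 17 reached 10 CPM, 13 were at least 2-fold higher in every mouse, 16 were above 1 in every mouse, and *Egr4* and *Fosl1* had no UMI in IEG-high microglia. *Ier2*, a nuclear immediate early protein, stood at 383, 567, 595 and 591 CPM in IEG-high and 61.6, 56.9, 62.4 and 81.01 CPM in other microglia, ratios of 5.83, 9.24, 8.90 and 6.93. *Fosb*, an AP-1 subunit like *Fos*, had ratios of 7.81, 9.33, 6.90 and 5.75. Both genes were higher in IEG-high microglia of all 4 mice, and the mouse with the lowest ratio was the adult low fiber mouse for *Ier2* and the aged high fiber mouse for *Fosb*. *Junb*, an AP-1 subunit, stood at 2605, 3406, 3951 and 3658 CPM, ratios of 3.70, 5.25, 4.68 and 3.58, and *Jun* at 5976, 6403, 6078 and 5598 CPM, ratios of 2.75, 3.22, 3.50 and 2.52. *Klf2*, a Krüppel-like factor, stood at 1672, 1785, 1314 and 1297 CPM against 329.7, 208, 170.1 and 163 CPM, ratios of 5.01, 8.41, 7.54 and 7.74. The orphan nuclear receptor *Nr4a1* ranged from 2.59 to 3.92, *Jund* from 2.59 to 3.44, *Klf6* from 2.19 to 3.36, *Klf4* from 2.12 to 2.95 and the antiproliferative *Btg2* from 2.23 to 3.10.

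Genes that damp or otherwise regulate the response were also higher. Of 22 such feedback genes, 18 reached 10 CPM, 18 were above 1 in every mouse and 7 were at least 2-fold higher in every mouse, and the list summed to 8222, 9665, 10047 and 9319.7 CPM against 4113, 3721, 3708 and 3909 CPM in other microglia. *Dusp1*, which dephosphorylates MAP kinases, stood at 489.9, 694, 592 and 681 CPM against 72.2, 65.5, 64.8 and 88.8 CPM. Its ratios were 6.41, 9.92, 8.55 and 7.31, a mean of 8.05 ± 1.52 (SD, n = 4 mice), and no gene outside the rule with a mean of at least 50 CPM had a higher ratio in its lowest mouse. *Zfp36* had ratios of 3.40, 5.02, 4.55 and 3.999. The NF-κB inhibitor *Nfkbia*, at 2.998, 4.13, 4.43 and 3.18, was higher in every mouse as well. So were *Nfkbiz*, an NF-κB regulator, at 4.40, 6.91, 6.83 and 4.37, and *Tnfaip3*, an enzyme that edits ubiquitin on NF-κB signaling proteins, at 2.54 to 4.09. *Socs3*, an inhibitor of cytokine receptor signaling, ranged from 2.70 to 4.09 and *Ppp1r15a*, a stress-induced phosphatase subunit, from 2.26 to 3.06.

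Of 21 chemokines, cytokines and related genes, 15 reached 10 CPM, 11 were above 1 in every mouse and 5 were at least 2-fold higher in every mouse. *Ccl3*, a chemokine, stood at 749, 591, 1636 and 1362 CPM in IEG-high and 237, 146, 407 and 402 CPM in other microglia, ratios of 3.12, 3.95, 3.98 and 3.36. *Ccl4*, another chemokine, encoded beside it on chromosome 11, stood at 551, 753, 2311 and 1466 CPM against 205, 141, 405 and 399 CPM, ratios of 2.64, 5.18, 5.64 and 3.64. In both cell states the levels of *Ccl3* and *Ccl4* were higher in the aged than in the adult mice. *Tnf* ranged in ratio from 2.31 to 4.66 and *Cd83*, a surface protein of activated immune cells, from 2.01 to 3.49. *Il1b* had ratios of 4.74, 3.95, 11.9 and 4.70. Without the MHC class II cells its lowest ratio was 1.11, so the count for this gene rests on those cells.

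Heat shock genes differed less. All 16 reached 10 CPM and 12 were above 1 in every mouse, but only *Dnajb1*, a cochaperone of Hsp70, was at least 2-fold higher in every mouse, at 2.94, 2.14, 3.61 and 2.37. *Hspa1a*, an inducible Hsp70, stood at 2325, 1319.7, 1065 and 1124 CPM against 1418, 1008, 672 and 736 CPM, ratios of 1.64, 1.31, 1.58 and 1.52. *Hspa8*, the constitutive Hsp70, averaged a ratio of 1.59 ± 0.16 and *Hsp90aa1*, an inducible Hsp90, 1.63 ± 0.13 (SD, n = 4 mice). The list summed to 11539, 8848, 6972 and 6623 CPM in IEG-high and 8163, 6793, 4634 and 4809 CPM in other microglia, and in both the adult low fiber mouse was highest. All 23 genes of a list known from dissociated microglia were above 1 in every mouse and 12 were at least 2-fold higher in every mouse, and 15 of the 23 also belong to the lists above. That list summed to 28669.6, 31432, 32238 and 29525 CPM against 12092, 10371, 9942 and 11074 CPM, and in IEG-high microglia the ages overlapped. The part of dissociation in these levels was not tested.

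Linker histone mRNAs were also among the 43 genes, with *Hist1h1e* at 2.97 to 4.49, joined by *Hist1h1d* and *Hist1h1c*. *Fam71a*, which averaged a ratio of 6.07 ± 0.33, lies 5478 bases beyond the end of *Atf3* on the same strand, and *AC122252.2*, at 3.01 ± 0.27, lies 2389 bases beyond *Dusp1* on the same strand. Their UMIs may come from transcripts of those neighbors and are uncertain.

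**Figure D3:**
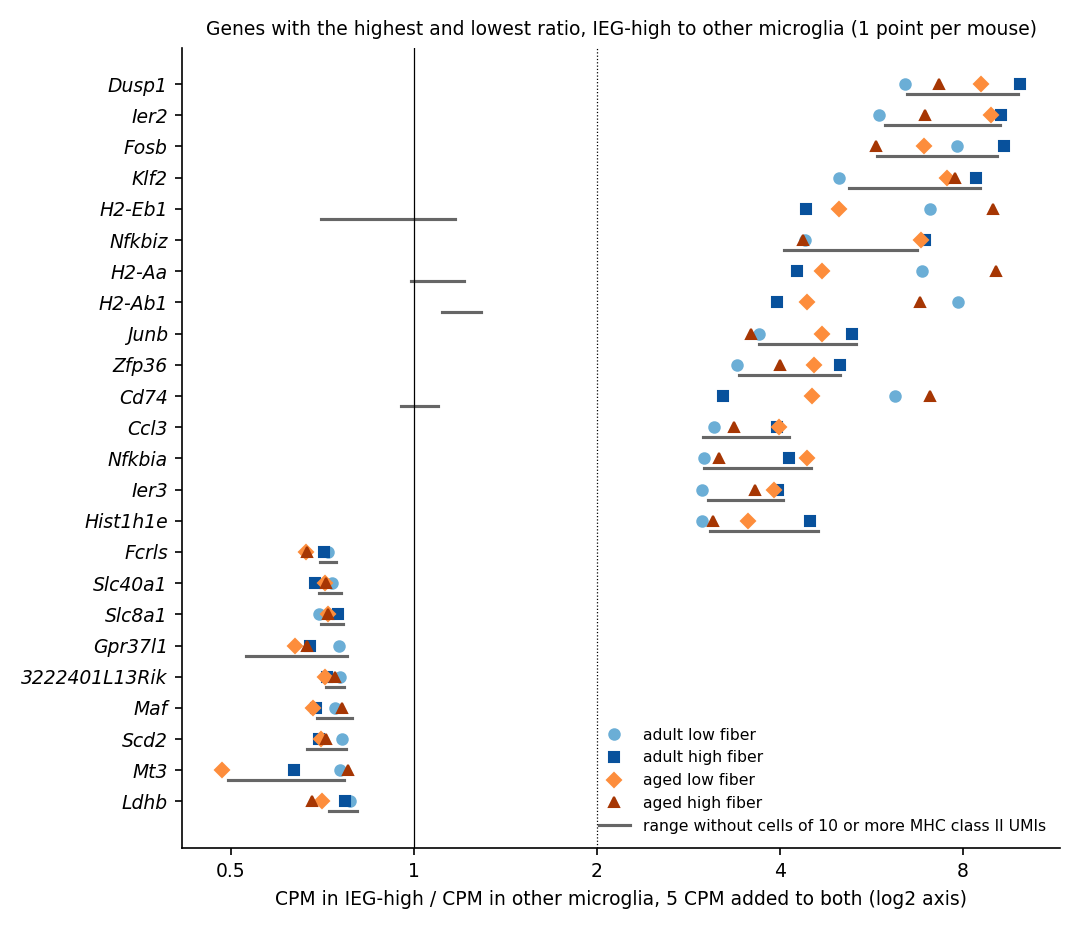
Ratio of CPM in IEG-high to CPM in other microglia in each mouse (points), on a log2 axis with 5 CPM added to both, for the 15 genes with the highest and 9 of the 10 with the lowest ratio, and its range without the MHC class II cells (grey lines). The grey lines of *H2-Eb1*, *H2-Aa*, *H2-Ab1* and *Cd74* lie around 1. *Dusp1* lies between 6.41 and 9.92 and *Fcrls* between 0.67 and 0.72.

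The genes lowest in IEG-high microglia stayed above a ratio of 0.5 in at least 1 mouse each. *Fcrls*, an Fc receptor-like protein of microglia, stood at 1200.0, 1319.7, 939 and 812 CPM against 1659.7, 1853, 1413 and 1219.8 CPM, ratios of 0.724, 0.713, 0.666 and 0.667. *Slc40a1*, the iron exporter ferroportin, ranged from 0.687 to 0.734, and *Maf*, a macrophage transcription factor, from 0.682 to 0.761. The 10 lowest also included *Slc8a1*, *Gpr37l1*, *3222401L13Rik*, *Scd2*, *Mt3* and *Ldhb*, of which *Gpr37l1* and *Mt3* are known for their expression in astrocytes. Of 19 homeostatic genes, 16 were below 1 in every mouse, 1 was above, and the median ratio was 0.89, against 0.96 over all 8646 genes. Without the MHC class II cells these medians were 0.93 and 0.97. Of 17 disease-associated genes outside the rule, 6 of the 16 that reached 10 CPM were above 1 and 5 below 1 in every mouse, with a median of 1.01, or 0.97 without the MHC class II cells. The share below 1 is near the 25.9% of all genes, and the share above 1 is over the 9.13% of all genes. Both counts include the MHC class II cells. *Lyz2*, a gene of this list, stood at 332, 372, 529 and 791 CPM in IEG-high microglia without those cells. Other microglia, from which such cells were not removed, held it at 361, 350, 639 and 806 CPM. Of 14 interferon-stimulated genes, 4 were above 1 in every mouse, none was at least 2-fold higher in every mouse, and the median was 1.28, or 1.15 without the MHC class II cells. Of 9 antigen presentation genes, *H2-Aa*, *H2-Ab1*, *H2-Eb1* and *Cd74*, the class II invariant chain, were at least 2-fold higher in every mouse. Without the 65 cells the ratios of these 4 lay between 0.70 and 1.29. Without those cells and their counterparts among other microglia, 37 of 8641 genes were at least 2-fold higher in every mouse.

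Levels of several other immediate early genes were higher the more UMIs of the 3 genes of the rule a cell held. Microglia were divided at 10, 20 and 50 UMIs of *Fos*, *Egr1* and *Atf3* per 10000, ranges of 1 score and not cell types. The top range held 44, 67, 95 and 65 cells, the middle range 101, 92, 106 and 123, and the range from 10 to 20 held 102, 88, 91 and 103. Averaged over the 4 mice, *Dusp1* stood at 72.8, 306, 534 and 1203 CPM from the lowest to the highest range, and *Ier2* at 65.5, 280.0, 436 and 1057 CPM. *Junb* stood at 801, 2267, 3415 and 5098 CPM and *Klf2* at 218, 845, 1471 and 2614 CPM. Each of these 4 was higher at every step in all 4 mice. In all 4 mice, 10 of the 26 transcription factors and regulators, 7 of the 22 feedback genes and 2 of the 21 chemokines and cytokines were higher at every step, and none of the 16 heat shock genes was. Of all 8646 genes outside the rule, 29 (0.335%) were higher and 2 (0.0231%) lower at every step in all 4 mice, a description, since the ranges are of the score that chose the cells. *Hspa1a* stood at 958, 1733, 1411 and 1086 CPM, highest in the range from 10 to 20. *Dnajb1*, at 70.3, 161, 182 and 289 CPM, and *Hspa8*, at 1210.1, 1740.3, 1838 and 2231 CPM, were higher at every step in 3 of 4 mice. *Ccl3* stood at 298, 875, 1125 and 1277 CPM and was higher at every step in 2 of 4 mice. Among microglial genes *P2ry12* stood at 2357, 2107, 2021 and 1853 CPM and was lower at every step in 2 of 4 mice, while *P2ry13*, a related purinergic receptor, and *Maf* were lower at every step in all 4. Cells of at least 10 MHC class II UMIs made up 0.97%, 4.69%, 6.16% and 7.75% of the microglia from the lowest to the highest range. Without them *P2ry12* stood at 2378, 2201, 2136 and 1983 CPM, and *P2ry13* was lower at every step in 2 and *Maf* in 3 of 4 mice. *Dusp1*, *Ier2*, *Junb* and *Klf2* were still higher at every step in all 4 mice. *Cx3cr1* stood at 2886, 2769.7, 2783 and 2805 CPM with and 2906, 2862, 2915 and 2971 CPM without those cells.

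**Figure D4:**
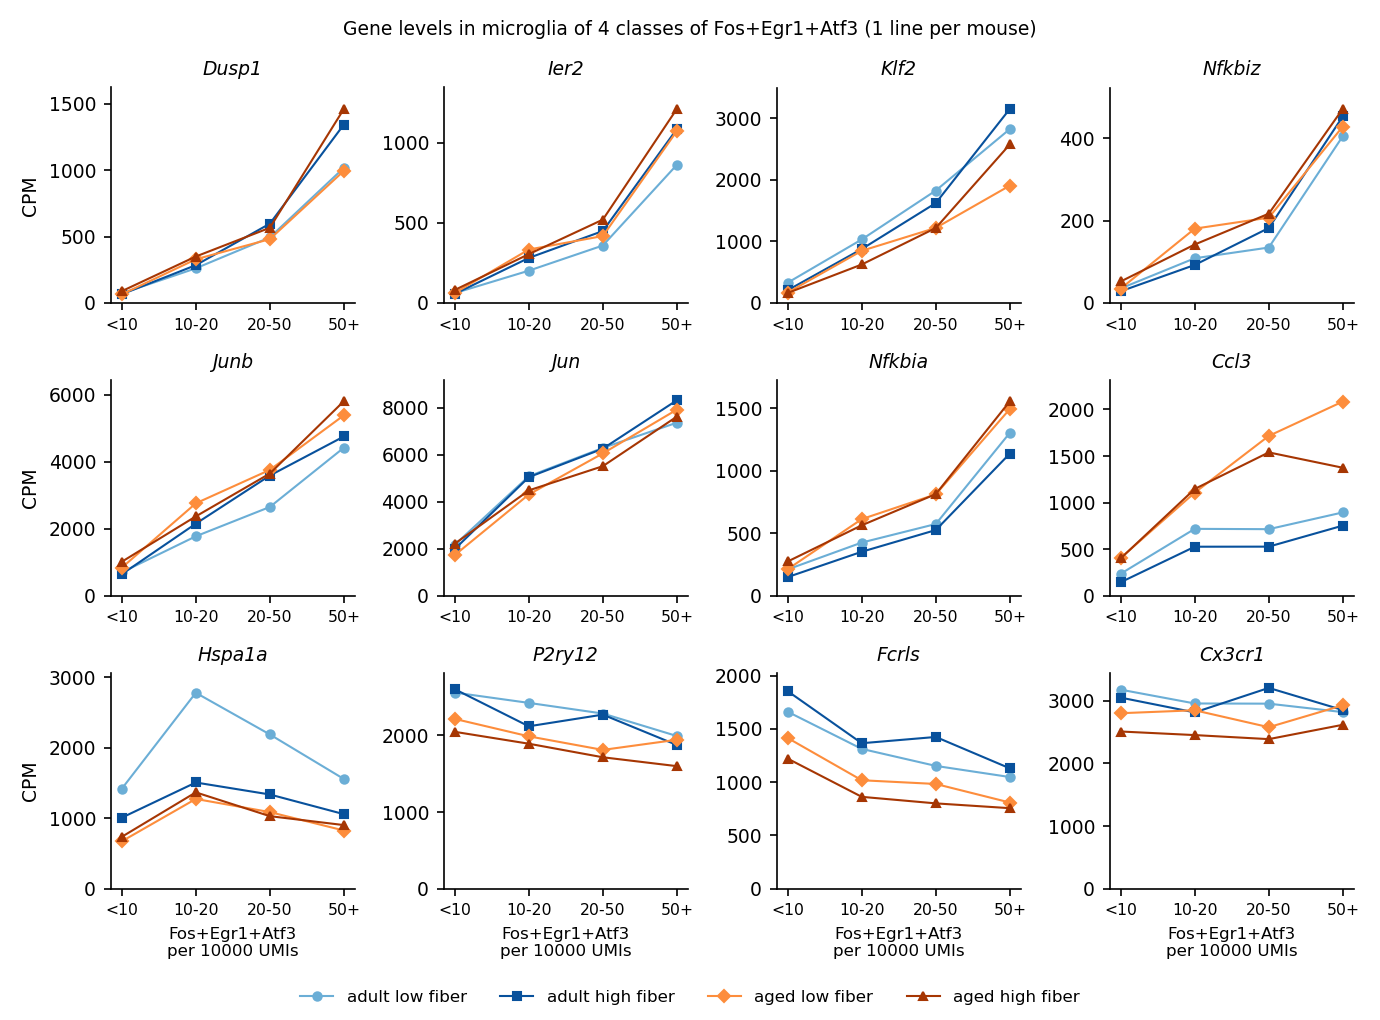
Level in CPM of the summed UMIs, on linear axes from 0, of 12 genes in 4 ranges of *Fos*, *Egr1* and *Atf3* per 10000 UMIs, 1 line per mouse. *Dusp1*, *Ier2*, *Junb* and *Klf2* are higher at every step in all 4 mice, whereas *Hspa1a* is highest in the range from 10 to 20 in each mouse.

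The leading gene of a cell also went with the levels of the chemokines *Ccl3* and *Ccl4*. This is a description with no test, since the rule used the same 3 genes. In cells in which *Atf3* had the most UMIs of the 3, *Ccl4* stood at 1171, 1118, 2944 and 2144 CPM, in cells led by *Egr1* at 419, 793, 2796 and 2288 CPM and in cells led by *Fos* at 312, 463, 1567 and 851 CPM. *Ccl4* was thus lowest in cells led by *Fos* in every mouse. *Ccl3* stood at 1163, 628, 2123 and 1726 CPM in cells led by *Atf3*, 825, 651, 1976 and 2143 CPM in those led by *Egr1* and 514, 489, 1019 and 915 CPM in those led by *Fos*, with the same order of the last. Between cells led by *Fos* and by *Atf3* alone, *Fosb* ran the other way. It stood at 162, 226, 232 and 173 CPM in cells led by *Fos* and 125, 118, 55.5 and 65.9 CPM in cells led by *Atf3*.

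A larger share of the IEG-high microglia held these mRNAs. With every cell thinned to 2000 UMIs, which left 237, 233, 278 and 278 IEG-high microglia, *Dusp1* had a UMI in a mean of 47.8% of IEG-high and 10.7% of other microglia over the 4 mice, and in 69.1% and 23.2% before thinning. *Ccl3* had one in 38.4% of IEG-high microglia, 20.2% of other microglia and 1.61% of endothelial barcodes, which are not known as a source of it (53.6%, 32.3% and 5.01% before thinning). *Tnf* had one in 10.03%, 3.61% and 0.264% of the same classes. *Ccl3* and *Tnf* were thus above the endothelial background in both microglial states. *P2ry12* had one in 90.5% of IEG-high and 95.4% of other microglia and in 2.43% of endothelial barcodes. Endothelial barcodes themselves expressed immediate early genes. *Klf2*, which maintains endothelial quiescence, had a UMI in 89.9% of them, 61.3% of IEG-high and 22.9% of other microglia, and *Ier2* in 33.99%, 47.9% and 9.55%.

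Aged IEG-high microglia had higher levels of interferon-stimulated genes, chemokines and antigen presentation genes than adult ones, and lower levels of several heat shock genes. The comparison was tested with edgeR's quasi-likelihood test on the UMIs summed per mouse (2 aged against 2 adult mice, the diets pooled). A gene was called at a Benjamini-Hochberg adjusted p under 0.05 and a fold change over 1.5. The SE given with a log2 fold change is its absolute value over the square root of the test's F statistic. It was derived from the test and is not a spread measured between mice. Of 10302 genes tested outside the rule, 156 were called higher (1.51%) and 28 lower (0.272%) in aged mice, and the median log2 fold change was -0.0074. The rule does not name age, but its limit on disease-associated genes left out 31 and 21 microglia of the adult and 290 and 401 of the aged mice, so the ages are compared among the cells below that limit. Without it 566 genes were called higher and 150 lower. A summed level cannot tell fewer cells expressing a gene from less of its mRNA in each.

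All 14 interferon-stimulated genes rose in aged mice, with a median log2 fold change of 2.01. *Ifit3*, an antiviral RNA-binding protein, stood at 9.15, 9.35, 69.996 and 99.5 CPM, with no overlap between the ages (log2 fold change 3.27 ± 0.25 SE, edgeR adjusted p = 3.1e-05). *Ifit2*, its neighbor on chromosome 19, stood at 4.27, 4.36, 50.5 and 43.5 CPM (3.51 ± 0.27, edgeR adjusted p = 3.1e-05). The cell with the most *Ifit2* UMIs gave 36 of 101 in the aged low fiber and 20 of 83 in the aged high fiber mouse. *Isg15*, a ubiquitin-like modifier, stood at 10.4, 14.3, 48.5 and 47.7 CPM and *Rtp4*, a chaperone induced by interferon, at 21.4, 8.72, 66.996 and 71.2 CPM. *Ifi27l2a* stood at 75.6, 108, 284 and 377 CPM (1.93 ± 0.18, edgeR adjusted p = 7.5e-05). In each of these 5 genes both aged mice exceeded both adult mice by more than the spread within an age. The number of these genes called was 7 at a limit of 20 per 10000, 9 of 11 tested with thinned cells, 12 by DESeq2 and 13 without the MHC class II cells, where *Irf7*, a transcription factor of the interferon response, lost its call (edgeR adjusted p = 0.048 with them and 0.13 without). Other microglia of the same mice held *Ifit3* at 10.9, 10.5, 61.3 and 45.5 CPM.

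Of the 21 chemokines, cytokines and related genes, 16 were tested, 10 rose, none fell, and the median log2 fold change was 1.07. *Ccl12*, a chemokine for CCR2, stood at 74.4, 68.5, 333 and 403 CPM (2.45 ± 0.14, edgeR adjusted p = 1.6e-06) and *Ccl2*, another ligand of CCR2, at 36.6, 26.2, 110.0 and 97.95 CPM (1.81 ± 0.16, edgeR adjusted p = 5.6e-05). *Ccl3* rose by 1.25 ± 0.12 (edgeR adjusted p = 0.00013) and *Ccl4* by 1.62 ± 0.18 (edgeR adjusted p = 0.00027), at the levels given above. *Il1b*, which encodes interleukin 1β, stood at 40.3, 31.8, 130.0 and 94.8 CPM (1.73 ± 0.17, edgeR adjusted p = 0.00013), *Tnf* at 38.4, 74.1, 133 and 96.4 CPM (1.12 ± 0.22, edgeR adjusted p = 0.016) and *Cd83* at 167, 194, 368 and 327 CPM. Of these, *Tnf* was not called with thinned cells, and neither *Tnf* nor *Il1b* was called at a limit of 20 per 10000. Without the MHC class II cells the log2 fold change of *Il1b* was 3.41. For all of these genes the lower of the aged mice lay above the higher of the adult mice. *Cxcl10*, an interferon-induced chemokine for CXCR3, stood at 18.3, 11.8, 257 and 81.7 CPM (3.57 ± 0.47, edgeR adjusted p = 0.0009), but 1 cell gave 292 of its 514 UMIs in the aged low fiber mouse. *Ccl5*, another chemokine, stood at 15.3, 13.1, 81.995 and 156 CPM (3.15 ± 0.32, edgeR adjusted p = 0.00013), with 115 of 164 UMIs in the aged low fiber and 119 of 297 in the aged high fiber mouse from 1 cell each, and it was not called with thinned cells or at a limit of 20 per 10000. The list held 6 calls of 15 tested at the limit of 20 per 10000 and 10 of 15 without the MHC class II cells.

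Of the 9 antigen presentation genes 8 rose, with a median of 1.19. At a limit of 20 per 10000 the calls were 4, *B2m*, *H2-K1*, *H2-D1* and *H2-Q7*, with a median of 0.90 and no class II gene or *Cd74* among them. *H2-D1*, a class I heavy chain, stood at 747, 623, 1445 and 1501 CPM (1.19 ± 0.11, edgeR adjusted p = 7.5e-05), *H2-K1*, another class I heavy chain, rose by 1.02 ± 0.11 and *B2m*, the class I light chain, by 0.72 ± 0.10. The class II genes *H2-Aa*, *H2-Ab1*, *H2-Eb1* and *Cd74* also passed, but the 65 MHC class II cells made up a larger share of the aged than of the adult IEG-high microglia. Without those cells 6 of 8 genes tested were called, *H2-Aa* was not (edgeR adjusted p = 0.27) and *H2-Eb1* was too low to test. DESeq2 called none of *H2-Aa*, *H2-Ab1* and *H2-Eb1* (adjusted p = 0.079, 0.78 and 0.073). Of the 17 disease-associated genes outside the rule 16 were tested, and 6 rose. *Apoe*, a lipid carrier, stood at 3138, 2917, 6590.1 and 10144 CPM (1.56 ± 0.16, edgeR adjusted p = 0.00019), and the others were *Axl*, *Cd52*, *Lyz2*, *Csf1* and *Ccl6*. Without the limit on disease-associated genes, 16 of 17 of these genes were called higher. Of the rule's own genes *Cst7*, *Spp1* and *Clec7a*, and of the mitochondrial mRNAs *mt-Co2*, *mt-Atp6* and *mt-Co3*, passed the same thresholds upwards and are left out of the counts.

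Heat shock genes went the other way. All 16 had a negative log2 fold change, with a median of -0.55, and 6 fell past the thresholds. *Hsph1*, an Hsp110 chaperone, stood at 142, 74.8, 45.997 and 37.2 CPM (-1.29 ± 0.24, edgeR adjusted p = 0.0098). *Hspa1b*, an inducible Hsp70, stood at 1097, 703, 499 and 452 CPM (-0.83 ± 0.16, edgeR adjusted p = 0.013) and *Hsp90aa1* at 1021, 892, 573 and 529 CPM (-0.71 ± 0.10, edgeR adjusted p = 0.002). *Dnaja1*, an Hsp40 cochaperone, stood at 522, 445, 296 and 252 CPM (-0.73 ± 0.12, edgeR adjusted p = 0.0037), and *Hspb1*, a small heat shock protein, and *Chordc1*, an Hsp90 cochaperone, fell by 0.82 and 0.70 on the log2 scale. Both adult mice lay above both aged mice in each, and the adult low fiber mouse was the highest of the 4. *Chordc1* was called neither by DESeq2 nor with thinned cells, *Hspb1* was not called with thinned cells, and at a limit of 20 per 10000 only *Dnaja1* was called. *Hspa1a* stood at 2325, 1319.7, 1065 and 1124 CPM (-0.65 ± 0.19, edgeR adjusted p = 0.11) and was not called, but it was called lower with diet as a covariate, without the MHC class II cells, with no limit on disease-associated genes and without either high fiber mouse. *Stip1*, which links Hsp70 and Hsp90 and was outside the list, fell by 0.93 on the log2 scale (edgeR adjusted p = 0.021). *Hspa1b* and *Stip1* were not called without the adult low fiber mouse (edgeR adjusted p = 0.11 and 0.23, with ranges of 3.4e-12 to 0.12 and 6.2e-05 to 0.38 over all alternatives). The number of heat shock genes called lower was 1 at a limit of 20 per 10000, 4 with thinned cells, 5 by DESeq2, 7 without the MHC class II cells and 8 with diet as a covariate. It was 4 without the adult low fiber mouse, where the median was -0.29, and 10 without the adult high fiber mouse.

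Of the immediate early transcription factors and the feedback genes, 4 passed between the ages, all upwards, in cells that had been chosen by 3 immediate early genes. Of 26 transcription factors and regulators 19 were tested, and 1 was called, where 1.51% of all genes were called higher. It was *Ier3*, an anti-apoptotic immediate early protein, which rose by 0.86 ± 0.12 (edgeR adjusted p = 0.0015). *Junb* had a log2 fold change of 0.43 ± 0.12 (edgeR adjusted p = 0.11), *Jun* of 0.00 ± 0.09 (adjusted p = 1), *Klf2* of -0.32 ± 0.10 (adjusted p = 0.14) and *Dusp1* of 0.19 ± 0.15 (adjusted p = 0.67), and none of these was called. Of 22 feedback genes 19 were tested, and *Nfkbia*, *Gadd45b*, a stress-induced protein, and *Cdkn1a*, the cell cycle inhibitor p21, rose by 0.62 ± 0.10, 1.69 ± 0.19 and 1.59 ± 0.23. Their edgeR adjusted p values were 0.0037, 0.00031 and 0.0019. None of either list fell. The calls numbered 3 and 5 without the adult high fiber mouse and 2 and 7 with no limit on disease-associated genes. Of the 23 dissociation genes 2 rose, *Ccl3* and *Ccl4*, and 2 fell, *Hsp90aa1* and *Hspa1b*. With diet as a covariate 5 rose and 3 fell, with no limit on disease-associated genes 6 and 3, and at a limit of 20 per 10000 2 and 0. Their median log2 fold change was 0.21, and 0.59 without the adult high fiber mouse.

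Homeostatic genes showed 1 call among 19 tested, *Crybb1*, a crystallin of microglia, which fell by 0.59 on the log2 scale (edgeR adjusted p = 0.0068). Without the MHC class II cells it fell by 0.52, under the fold threshold. It was also not called at limits of 5 or 20 per 10000, with thinned cells, by DESeq2, with RLE size factors or with no filter on low counts. Nor was it called without the adult low fiber mouse or without the aged high fiber mouse. None of the 12 microglia markers was called. *Enpp2*, autotaxin, stood at 591, 593, 230.0 and 236 CPM (-1.26 ± 0.10, edgeR adjusted p = 4.4e-05), lower in both aged mice. *Trpm3*, a cation channel, *Igfbp2*, an insulin-like growth factor binding protein, *Gja1*, the astrocytic gap junction protein connexin 43, *Kcnd1*, a potassium channel, and *Lpgat1*, an acyltransferase, fell by 1.22, 1.18, 1.10, 1.04 and 1.03 on the log2 scale. *Enpp2*, *Trpm3* and *Igfbp2* are also known from the choroid plexus, whose marker *Ttr* fell with them, at 6536, 5579, 3333 and 3738 CPM (-0.69 ± 0.11, edgeR adjusted p = 0.0037), and *Clu* fell with *Gja1* among 7 astrocyte markers tested. The part of RNA from those cells in these changes was not tested. Astrocyte markers called lower numbered 4 of 8 tested at a limit of 5 per 10000, 0 of 7 at 20 and 3 of 7 without the MHC class II cells. *Kl* and *Folr1* of the choroid plexus list were called lower with *Ttr* at a limit of 5 per 10000. The median log2 fold change of that list was -0.38, and -0.86 to -0.17 with a mouse left out, nearest 0 without the adult low fiber mouse. *Trpm3*, *Igfbp2*, *Gja1*, *Kcnd1*, *Lpgat1* and *Clu* were called neither by DESeq2 nor with thinned cells, and *Kcnd1* was also not called without the MHC class II cells. *Gja1* was not called without doublets (edgeR adjusted p = 0.12, and 3.1e-05 to 0.81 over all alternatives).

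Among the other genes with the largest increase, *Igkc*, the immunoglobulin κ constant region of B lineage cells, stood at 0, 1.87, 97.5 and 27.2 CPM (6.06 ± 0.84, edgeR adjusted p = 0.0013), while the 8 lymphocyte markers had no call among 3 tested. In other microglia *Igkc* stood at 2.997, 7.34, 63.5 and 303 CPM. All 3 lymphocyte markers tested had a log2 fold change above 0, with a median of 1.18. Of them, *Nkg7* was called higher at a limit of 5 per 10000 and with no limit on disease-associated genes. *S100a4*, a calcium-binding protein of motile leukocytes, stood at 2.44, 7.48, 18.5 and 53.4 CPM (2.93 ± 0.56, edgeR adjusted p = 0.012) and was not called without the MHC class II cells (adjusted p = 0.28, and 6.2e-25 to 0.28 over all alternatives). The cell with the most *S100a4* UMIs gave 11 of 37 in the aged low fiber and 52 of 102 in the aged high fiber mouse. *H2-Q6*, a nonclassical class I gene whose UMIs may be shared with near-identical H2-Q copies, stood at 17.7, 7.48, 65.5 and 69.7 CPM and rose (edgeR adjusted p = 0.00013). *Mid1*, a ubiquitin ligase at chrX:169685199-170005736, stood at 21.4, 0.623, 49.997 and 114 CPM, and *G530011O06Rik*, which lies within it on the opposite strand at chrX:169975043-169978917, at 37.8, 0.623, 109 and 219 CPM. In both the adult high fiber mouse was near 0 and apart from the other adult mouse, and DESeq2 called neither (adjusted p = 1). Among markers of other cells, *Rgs5* of 6 mural and *Ms4a6c* of 4 macrophage markers tested rose, and no granulocyte, endothelial, oligodendrocyte, neuronal or erythroid marker was called. *Rgs5* was not called without doublets or with thinned cells. Granulocyte markers were called lower in aged mice in several alternatives, 3 of 5 tested without doublets, 4 of 5 with diet as a covariate and 5 of 7 without the adult low fiber mouse or without either aged mouse, but 0 of 6 without the adult high fiber mouse. The alternatives called at most 1 endothelial, 2 neuronal and 1 erythroid marker. Mural calls numbered 4 of 6 with diet as a covariate or without the aged high fiber mouse (*Rgs5*, *Myl9*, *Tagln* and *Acta2*), and macrophage calls 3 of 5 without the adult low fiber or the aged low fiber mouse (*Ms4a6c*, *Ms4a7* and *Plac8*).

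**Figure D5:**
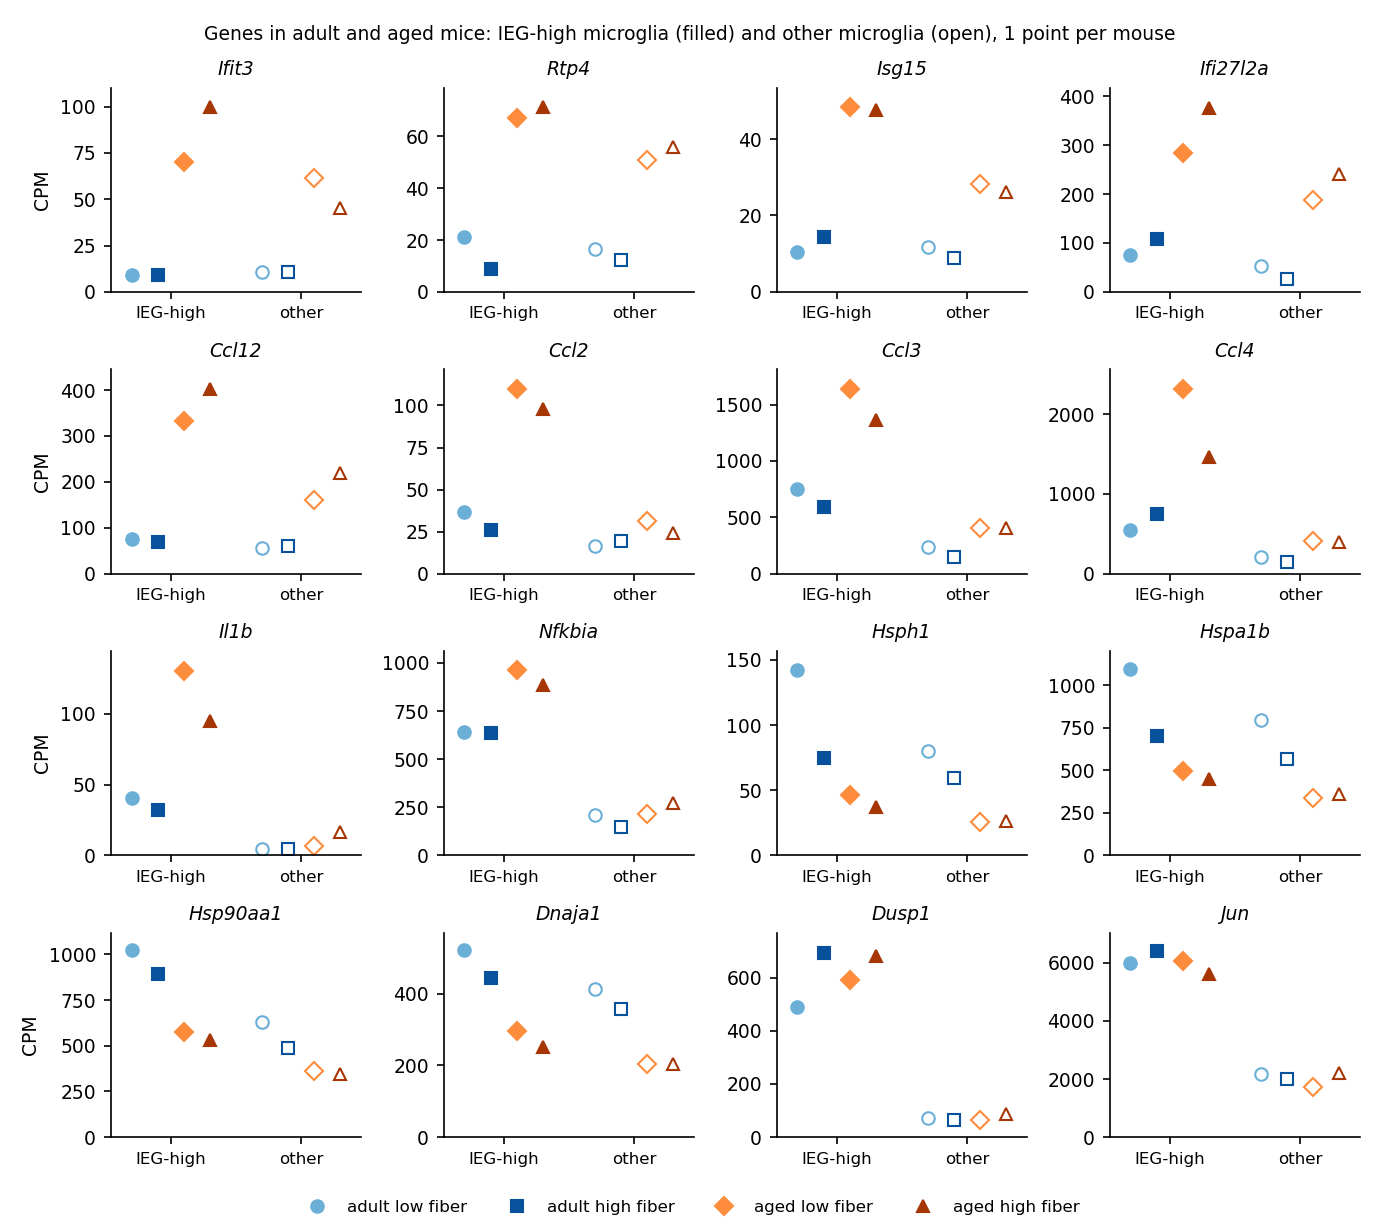
Level in CPM of the summed UMIs, on linear axes from 0, of 16 genes in IEG-high (filled) and other microglia (open) of each mouse, by age. *Ifit3*, *Ccl12* and *Ccl3* lie higher and *Hsph1* and *Hsp90aa1* lower in the IEG-high microglia of both aged mice, and the ages overlap for *Dusp1* and *Jun*.

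Whether age acted differently in IEG-high than in other microglia was tested as an interaction term in edgeR that kept each mouse as a block. Of 12930 genes outside the rule, 2 had a larger change with age in IEG-high microglia (0.0155%) and 0 a smaller one (0%), with 272 lower and 256 higher at an unadjusted p under 0.05 and none called by DESeq2. None of the 14 interferon-stimulated, 17 chemokine and cytokine, 16 heat shock or 21 immediate early genes tested was among them, so the age differences in those lists are not shown to differ between the states. The values side by side were 74.4, 68.5, 333 and 403 CPM in IEG-high and 54.8, 60.3, 159.6 and 219.8 CPM in other microglia for *Ccl12*, and 629, 490.2, 363 and 347 CPM in other microglia for *Hsp90aa1*. *Crip1*, a LIM domain protein, stood at 37.8, 53.6, 148 and 97.95 CPM in IEG-high and 49.03, 49.1, 61.7 and 37.7 CPM in other microglia. The difference of its log2 fold changes was 1.41 ± 0.17 (edgeR adjusted p = 0.0029), with 144 of 297 UMIs of the aged low fiber mouse from 1 cell. *Rgs5*, a mural cell gene, stood at 18.3, 23.1, 55.5 and 57.1 CPM against 29.9, 49.4, 36.2 and 26.2 CPM (1.77 ± 0.23, edgeR adjusted p = 0.0069), and 1 cell gave 53 of 111 UMIs in the aged low fiber and 1 gave 78 of 109 in the aged high fiber mouse. Without doublet calls its difference was -0.08.

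No gene passed between the diets. Of 10302 genes tested in IEG-high microglia of 2 high fiber against 2 low fiber mice, the ages pooled, edgeR called 0 (0%), with 227 at an unadjusted p under 0.05 and 0 called by DESeq2. With age as a covariate 20 genes were called higher and 13 lower. No list held a call. Among the 16 heat shock genes 1 had a log2 fold change above 0 and the median was -0.20, against -0.0011 over all genes. With 1 mouse per age and diet, these values measure the spread between single mice.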

How the data were processed

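Single-cell libraries (10X Genomics 3′ kit, version 3) were pooled on 1 sequencing lane, and the submitters' processing notes name Cell Ranger 3.1.0 and build GRCm38. The authors deposited whole-number UMI counts for 55573 genes per cell barcode, 1 matrix per mouse (9246, 10256, 7881 and 9493 barcodes in the order adult low, adult high, aged low and aged high fiber), with no normalization. The filters on barcodes, the gene lists and the tests were chosen with earlier results of these data known. Doublets were called with Scrublet (scanpy 1.11.5, expected rate 0.08) and kept. UMIs were summed per mouse and cell class, and CPM is a gene's UMIs per 1000000 of that sum. Sums of IEG-high microglia were tested with edgeR 4.0.16 (quasi-likelihood test, filterByExpr, TMM; R 4.3.3) and adjusted by Benjamini-Hochberg across all tested genes, for age, for diet and, with the mouse as a block, for the difference in the age effect between IEG-high and other microglia. The 18 genes of the rule and the mitochondrial genes were left out of every count of calls. P-values measure the spread between 2 mice per group. Shares were compared with exact permutation tests (scipy 1.17.1), and binomial intervals cover counting error only.

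The genes named are members of the role and marker lists, the 15 with the highest and 10 with the lowest weakest-mouse ratio among those with a mean of at least 50 CPM, and per test the 10 called genes of largest change in each direction among those of at least 20 CPM whose groups did not overlap; the few others were named after their values were seen. Some genes that meet the rule are not reported here. Cells were thinned to 2000 UMIs for shares of cells with a UMI. Endothelial barcodes had at least 20 UMIs of *Cldn5*, *Flt1* and *Ly6c1* per 10000 and at most 2 of the C1q genes. Promoters and gene positions came from RefSeq (GRCm38.p6) and GENCODE M21. The test script was checked on simulated data with the same noise setting for every gene. That check does not cover the spread between the mice of these data. Alternatives were limits of 5 and 20 per 10000, at least 2000 UMIs, thinned cells, at least 3 UMIs of the 3 genes, no doublet calls, no limit on disease-associated genes, DESeq2 1.42.0, RLE size factors, no filter on low counts, the other factor as a covariate and leaving out each mouse. Leaving out cells of at least 10 MHC class II UMIs was added after seeing the data.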

Additional observations from a re-analysis of the deposited data

Results flagged for a closer look

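The change with age differed between IEG-high and other microglia in 2 genes by the interaction test in edgeR. *Rgs5* had a difference of log2 fold changes of 1.77 and *Crip1* of 1.41, each in a contrast of 2 aged against 2 adult mice. The median difference over all genes was -0.0096. Neither was called by DESeq2 or with cells thinned to 2000 UMIs. *Crip1* kept its call without doublets (edgeR adjusted p = 0.0042) and without the MHC class II cells (adjusted p = 0.0065), and *Rgs5* only without the latter (adjusted p = 0.0064). *Rgs5* UMIs were found in 34 and 30 cells and *Crip1* UMIs in 61 and 73 cells of the aged low and aged high fiber mice.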

How the results depend on the processing

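The higher share of IEG-high microglia in aged mice kept its direction under all alternatives run. The difference between the diets reversed without 1 mouse, ranging from -2.68 to 5.96 percentage points with -0.626 without the adult low fiber mouse. Against 156 genes higher in aged mice, 57 were called at a limit of 20 per 10000 (56 of them among the 156), 65 with thinned cells (63 among them), 566 with no limit on disease-associated genes, 89 by DESeq2 (all among the 156) and 158 to 263 with a mouse left out, the most without the aged low fiber mouse. Against 28 lower, the calls were 61 at a limit of 5 and 5 at 20 per 10000, 8 with thinned cells, 48 without doublets, 150 with no limit on disease-associated genes, 48 without the MHC class II cells, 8 by DESeq2, 75 with diet as a covariate and 44 to 96 with a mouse left out. Between the diets, 42 genes were higher and 24 lower with no filter on low counts, 20 and 13 with age as a covariate, and 0 to 15 and 0 to 19 with a mouse left out. In the interaction, more positive differences were called in 7 genes at a limit of 5, 4 at 20 per 10000, 0 with thinned cells, 1 without doublets, 0 with no limit on disease-associated genes, 0 by DESeq2, 14 with no filter and 13 to 22 with a mouse left out. More negative ones were called in 3 at a limit of 5, 3 with thinned cells, 11 with no filter and 9 to 19 with a mouse left out. *Rgs5* reversed to -0.075 without doublets. The causes were not tested. Of the values of single genes named by size of change, 307 kept their side of the threshold, 40 did not and 1 reversed. Genes at least 2-fold higher in IEG-high microglia in every mouse numbered 35 to 57. Diet as a covariate pairs the aged with the adult mouse of the same diet and gave 203 genes higher; the replicate numbers are all 1 and give no other pairing. Depth limits genes of few UMIs: with cells thinned to 2000 UMIs, 11 of the 14 interferon-stimulated genes could be tested.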

Other observations

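Granulocyte markers stood apart in 1 library. In IEG-high microglia of the adult high fiber mouse the 8 markers summed to 1942 CPM, led by *S100a9*, against 283, 325 and 209 CPM in the adult low, aged low and aged high fiber mice. In other microglia the same mouse did not stand highest, at 927, 704, 312 and 825 CPM in the 4 mice. Erythroid markers in other microglia summed to 73.01, 1227, 95.9 and 1176 CPM and were higher in both high fiber mice, while in IEG-high microglia they summed to 73.2, 208, 93.5 and 167 CPM, in the same order of diets.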
